A study of Mus musculus with 16 samples.

Results

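In whole mouse lungs, RNA was measured for 8 genes of heart muscle: Actc1, Myh6, Tnnt2, Tnni3, Myl7, Myl4, Nppa and Ryr2. No detection calls were used here. The genes were taken from a list of heart muscle symbols that was chosen with earlier results of these data known. Counts of members set against all genes are therefore descriptions and no independent support. The symbols were looked up in the array's annotation, with 1 probe set per gene, the one with the highest mean over all 16 arrays. All 8 were found, each with a single probe set, among 19938 genes that had a probe set naming 1 gene. At day 2 after crystalline silica reached the airways, 5 of the 8 (Actc1, Tnni3, Myl4, Nppa and Ryr2) were lower than in saline-treated lungs, by 1.54- to 2.20-fold. In that comparison, averaged over both genotypes, 4.37% of all genes were called lower. Each saline group was a single pooled array, and the calls depended on these pools. No member passed the test at day 60 in lungs with a tumor allele, where 0.677% of all genes were called lower. All 8 differences were again below 0, where the median over all genes was -0.03. The 8 share the same pools and lungs and are not independent.

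Heart muscle contracts when calcium released from internal stores lets myosin pull on actin. Actc1 encodes cardiac actin, and Myh6 encodes the alpha heavy chain of cardiac myosin, the motor itself. Tnnt2 and Tnni3 encode cardiac troponin T and troponin I, which hold the thin filament off until calcium binds. Myl7 and Myl4 encode the atrial regulatory and essential light chains of myosin, and Ryr2 encodes the channel that releases calcium from the sarcoplasmic reticulum. Nppa encodes atrial natriuretic peptide, a hormone that atrial muscle secretes when stretched. In mice a sleeve of heart-type muscle runs from the left atrium along the pulmonary veins into the lung, and atrial tissue left on a dissected lung would carry the same RNAs. Which of these sources the RNAs had was not tested.

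Silica (CS) or phosphate-buffered saline (PBS) was given into the trachea of mice on a C57BL/6 background, listed at 10 to 12 weeks of age. BLT1, the receptor for the leukocyte attractant leukotriene B4, was present (BLT1+/+) or deleted (BLT1-/-). Day 2 samples were BLT1+/+ and BLT1-/- lungs; day 60 samples were BLT1+/+KRasLA1 and BLT1-/-KRasLA1 lungs, where KRasLA1 is a latent oncogenic allele that starts lung tumors after spontaneous recombination. The allele was carried by silica and saline mice alike at day 60 and by none at day 2, so time and allele cannot be told apart. Every CS group had 3 separately arrayed lungs, and every PBS group was a single array made from the joined RNA of 3 mice. A pool averages its mice and shows no spread, so the fit lends it the spread of CS lungs. Animals are not numbered in the labels, so each p-value reflects the scatter of these arrays, which may be partly technical. In whole lungs, fewer cells of a type and less RNA per cell cannot be told apart.

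Values are log2 expression after RMA, with array medians between 8.25 and 8.34. A step of 1 is a doubling, and probe sets of different genes cannot be ranked against each other. The lung label held on every array, with the surfactant gene Sftpc between 14.25 and 14.47 and the club cell gene Scgb1a1 between 14.24 and 14.47. BLT1+/+KRasLA1 CS replicate 2 stood apart, with the Y-linked gene Eif2s3y at 10.09 and the X-inactivation transcript Xist at 6.61. The day 60 pools had both transcripts, with Eif2s3y at 9.68 and 9.04 and Xist at 12.32 and 12.16, while the other 13 arrays had Eif2s3y between 4.27 and 4.74 and Xist between 12.75 and 13.06. Without that lung the counts of members that passed stayed at 5 for the mean response at day 2 and at 0 for the mean response at day 60, but the 2 calls in BLT1-/- lungs at day 2 were lost. Leaving it out does not part these transcripts from saline at day 60, since both day 60 pools still had Eif2s3y. Among the pools they cannot be told apart from day either. Sex is not in the labels.

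The promoters of Actc1 and Myl7 are shown because a CArG box, the element bound by serum response factor, lay close to the start of these 2 members alone. Each sequence is the 250 bases upstream of the gene's start from RefSeq (GRCm38.p6), read 5′ to 3′ on the gene's own strand, which is the minus strand for both, with the CArG box in capitals.
Actc1, chr2:114052876-114053125: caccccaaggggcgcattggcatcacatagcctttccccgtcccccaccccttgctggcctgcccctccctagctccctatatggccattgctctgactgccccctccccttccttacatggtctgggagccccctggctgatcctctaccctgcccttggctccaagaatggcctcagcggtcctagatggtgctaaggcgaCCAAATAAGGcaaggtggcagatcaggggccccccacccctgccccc
Myl7, chr11:5898783-5899032: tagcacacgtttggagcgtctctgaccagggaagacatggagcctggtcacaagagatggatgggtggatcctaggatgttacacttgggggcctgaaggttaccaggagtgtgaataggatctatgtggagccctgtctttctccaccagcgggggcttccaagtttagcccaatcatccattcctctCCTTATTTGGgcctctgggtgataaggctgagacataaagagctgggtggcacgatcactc
The match was CCAAATAAGG at -47 to -38 from the Actc1 start and CCTTATTTGG at -61 to -52 from the Myl7 start. The box of one gene is the reverse complement of the box of the other. Over RefSeq windows running from 250 bases before to 50 bases after a start, 1.41% of 19177 windows held such a box on either strand. All 8 members had a window, 9 windows in all. The MCAT element CATTCC, a TEAD site, was found in windows of Myh6, Tnnt2 and Myl7 and in 13.2% of all windows, the GATA site AGATAA in Tnnt2 and in 9.25%, and TATAAA in Actc1, Myh6 and Nppa and in 11.5%. The MEF2 site was in no member window and in 2.52% of all. Both strands were searched, and no 2 matches in a member window overlapped. A match describes letters in a window and is no evidence of binding in these lungs.

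The thin filament genes come first. Actc1 stood at 12.52 in the BLT1+/+ pool at day 2, against 12.11, 11.35 and 11.12 in the 3 BLT1+/+ CS lungs. In BLT1-/- mice the pool was at 12.57 and the CS lungs at 11.45, 11.72 and 10.96. All 6 CS lungs lay below both pools. At day 60 the BLT1+/+KRasLA1 pool was at 12.28 and its CS lungs at 11.30, 11.27 and 11.80. The BLT1-/-KRasLA1 pool was lower, at 11.76, with CS lungs at 11.41, 11.34 and 11.23, so that 1 CS lung of the other genotype reached above this pool.

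Tnni3, the inhibitory troponin, followed the same order. At day 2 the BLT1+/+ pool was at 11.25 with CS lungs at 10.76, 10.16 and 10.04, and the BLT1-/- pool was at 11.15 with CS lungs at 10.22, 10.28 and 9.76. Lungs and pools did not overlap. At day 60 the BLT1+/+KRasLA1 pool was at 11.11 and its CS lungs at 10.03, 10.33 and 10.83. The BLT1-/-KRasLA1 values were 10.76 in the pool and 9.93, 10.26 and 10.05 after silica. Each lung was below its own pool, but the highest BLT1+/+KRasLA1 lung was above the BLT1-/-KRasLA1 pool.

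Tnnt2, which anchors the troponin complex to tropomyosin, had the smallest gap at day 2. The BLT1+/+ pool was at 11.56 and the CS lungs at 11.44, 10.92 and 10.79. The BLT1-/- pool was at 11.75 and the CS lungs at 11.31, 11.57 and 10.78. Replicate 2 of the BLT1-/- CS lungs thus reached the BLT1+/+ pool, and Tnnt2 was the only member whose lungs and pools overlapped at day 2. For the other 7 members every CS lung lay below both pools, as it did for 10% of all genes. In day 60 samples Tnnt2 was at 11.46 in the BLT1+/+KRasLA1 pool and at 10.43, 10.52 and 11.13 after silica. In BLT1-/-KRasLA1 mice it was at 10.92 in the pool and at 10.48, 10.55 and 10.45 after silica, a narrow group below its pool.

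Among the myosin genes, Myh6 was at 10.59 in the BLT1+/+ pool at day 2 and at 10.21, 9.36 and 9.32 in the CS lungs. The BLT1-/- pool was at 10.68 and its CS lungs at 10.20, 10.31 and 9.43. All 6 lungs were below both pools, with BLT1+/+ replicate 1 and BLT1-/- replicates 1 and 2 well above the other 3. By day 60 Myh6 was at 9.90 in the BLT1+/+KRasLA1 pool with CS lungs at 8.93, 9.16 and 9.56. The BLT1-/-KRasLA1 pool was at 9.61 and the lungs at 9.14, 9.62 and 9.03, so replicate 2 was level with its pool.

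Myl7 was at 10.42 in the BLT1+/+ pool at day 2 and at 10.02, 9.65 and 9.22 after silica. In BLT1-/- mice the pool was at 10.43 and the CS lungs at 10.03, 10.07 and 9.42. Both pools lay above all 6 lungs. At day 60 the pools were higher than at day 2, at 10.80 in BLT1+/+KRasLA1 and 10.58 in BLT1-/-KRasLA1. The CS lungs were at 9.51, 9.80 and 10.46 in the first genotype and at 9.66, 9.81 and 9.51 in the other, again all below both pools.

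Myl4 behaved like Myl7. Its day 2 values were 11.95 in the BLT1+/+ pool with 11.52, 10.82 and 10.68 after silica. The BLT1-/- pool was at 11.93 and the CS lungs at 10.92, 11.34 and 10.65. For day 60 the BLT1+/+KRasLA1 pool was at 12.11 with lungs at 11.12, 11.33 and 11.74. The BLT1-/-KRasLA1 pool was at 11.88 with lungs at 11.16, 11.24 and 11.09. On both days every CS lung was below both pools of its day. At day 60 this held for 2 of 8 members and for 7.76% of all genes.

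Ryr2 had the narrowest range over the 16 arrays, 1.23, and was lower at day 60 than at day 2 in every pool. At day 2 the pools were at 9.23 in BLT1+/+ and 9.19 in BLT1-/- mice. The CS lungs were at 8.90, 8.55 and 8.33 in BLT1+/+ and at 8.64, 8.82 and 8.31 in BLT1-/- mice, with no overlap. In day 60 samples the BLT1+/+KRasLA1 pool was at 8.61 with CS lungs at 8.02, 7.998 and 8.42. The BLT1-/-KRasLA1 pool, at 8.23, was close to its lungs at 8.09, 8.16 and 8.11.

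Nppa, the hormone gene, had the widest range, 2.60, and a pattern of its own. At day 2 its pools differed, with 10.53 in BLT1+/+ and 9.67 in BLT1-/- mice, while the CS lungs were alike: 9.60, 8.45 and 8.74 in BLT1+/+ and 9.06, 9.15 and 8.80 in BLT1-/-. At day 60 the BLT1+/+KRasLA1 pool was at 9.75 and its CS lungs at 9.39, 9.94 and 10.21, on either side of the pool. In BLT1-/-KRasLA1 mice the pool was at 9.41 and the CS lungs at 8.82, 8.35 and 7.93, all lower. These 3 lungs lay below every BLT1+/+KRasLA1 lung, and the share of all genes that split this way is not given here.

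**Figure D1:**
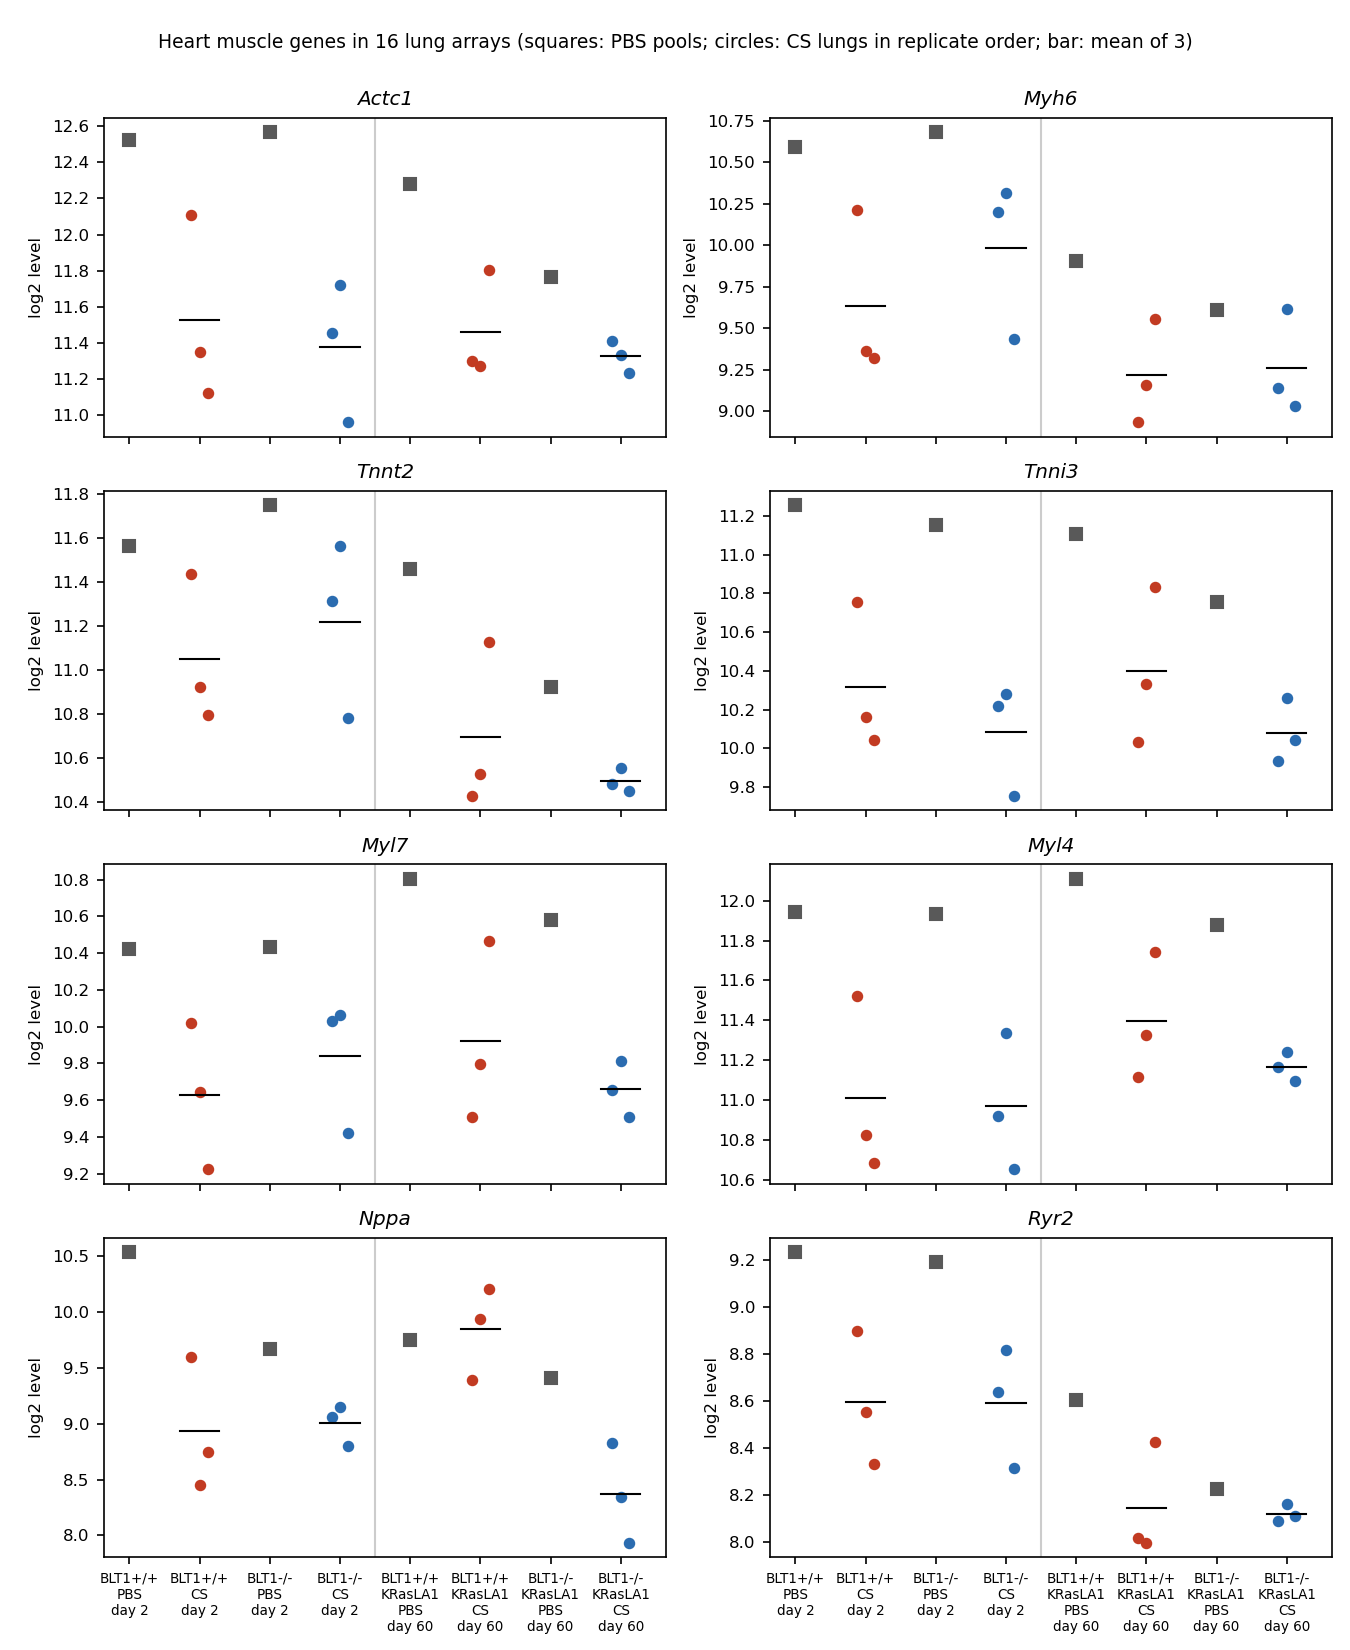
Log2 level of each heart muscle gene on 16 lung arrays (y axis, a separate scale per gene) by group (x axis); squares are single PBS pools, circles are CS lungs, bars are means of 3 lungs, and the grey line parts day 2 from day 60. Both day 2 pools sit above all CS lungs for every gene except Tnnt2, a pattern shared by 10% of all genes. At day 60 the means of the 2 silica groups lie farthest apart for Nppa.

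Averaged over both BLT1 genotypes, 5 of the 8 members fell after silica at day 2 and 0 rose (limma, Benjamini-Hochberg adjusted p under 0.05 over all genes), where 4.37% of all genes were called lower and 8.03% higher. Cardiac actin Actc1 fell by 1.09 ± 0.23 (SE) on the log2 scale, a 2.13-fold drop with a limma adjusted p of 0.00795. Tnni3 fell by 1.00 ± 0.21, 2.00-fold, with the same adjusted p. The atrial light chain gene Myl4 fell by 0.95 ± 0.21, 1.93-fold (limma adjusted p = 0.0106). Nppa fell by 1.14 ± 0.28, 2.20-fold (limma adjusted p = 0.0185), and the calcium channel gene Ryr2 fell by 0.62 ± 0.16, 1.54-fold (limma adjusted p = 0.0209).

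The other 3 members did not pass. Myh6 differed by -0.83 ± 0.27 (limma adjusted p = 0.0596), Myl7 by -0.69 ± 0.24 (0.0807) and Tnnt2 by -0.52 ± 0.21 (0.134). With the replicate number as a block, Myh6 (limma adjusted p = 0.0184) and Myl7 (0.0229) passed as well, 7 members in all. That pairing was taken from these same data and not from the labels. The block also makes the errors of silica responses too small, so the calls it added carry little weight. All 8 members were below their own pool in 6 of 6 lungs, a pattern shared by 15.4% of all genes. The members' median difference was -0.89 and that of all genes was -0.02.

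Single arrays moved these calls. Without BLT1+/+ CS replicate 1, the highest lung of its group for all 8 members, 8 of 8 passed (Tnnt2 at a limma adjusted p of 0.0472). Without BLT1-/- CS replicate 2, Myh6 passed at 0.0482, and without BLT1+/+KRasLA1 CS replicate 3, Myl7 passed at 0.0377. Without either PBS pool of day 2 the response rests on 1 genotype and 0 of 8 passed, with the lower of the 2 limma adjusted p-values at 0.0725 for Tnni3, 0.0996 for Nppa, 0.101 for Actc1, 0.126 for Myl4 and 0.169 for Ryr2. The Nppa value then moved to -1.60 without the BLT1-/- pool and to -0.67 without the BLT1+/+ pool.

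In BLT1+/+ lungs alone at day 2, 0 of 8 members passed, where 0.311% of all genes were called lower; 7 of the 8 had an unadjusted limma p under 0.05, as had 2451 genes of all. Differences ran from -1.60 ± 0.40 for Nppa (limma adjusted p = 0.0746) to -0.51 ± 0.30 for Tnnt2 (0.549). Actc1 differed by -0.99 ± 0.33, Myh6 by -0.96 ± 0.38, Myl4 and Tnni3 by -0.94 ± 0.30 each. With the replicate block Tnni3 passed (limma adjusted p = 0.0383). Leaving out BLT1+/+ CS replicate 1 brought 4 members past the threshold, with adjusted p-values of 0.0170 for Actc1, 0.0344 for Tnni3, 0.0192 for Myl4 and 0.00798 for Nppa.

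In BLT1-/- lungs at day 2, Actc1 fell by 1.19 ± 0.33 (limma adjusted p = 0.0458) and Tnni3 by 1.07 ± 0.30 (0.0492), so 2 of 8 passed, where 1.4% of all genes were called lower. Myl4 differed by -0.97 ± 0.30 (0.0697), Ryr2 by -0.60 ± 0.22 (0.123) and Nppa by -0.67 ± 0.40 (0.320). With the replicate block Myl4 (0.0375) and Ryr2 (0.0469) passed too. The calls of Actc1 and Tnni3 sat near the threshold, and each was lost in 8 of the 12 fits that left out 1 CS lung, at adjusted p-values from 0.0526 to 0.105 for Actc1 and from 0.0521 to 0.117 for Tnni3. Both calls were lost without BLT1-/- CS replicates 1 or 3, BLT1-/-KRasLA1 CS replicates 1, 2 or 3, BLT1+/+KRasLA1 CS replicate 2 or BLT1+/+ CS replicate 2. That of Actc1 was also lost without BLT1+/+KRasLA1 CS replicate 1, and that of Tnni3 without BLT1-/- CS replicate 2. Myl4 passed without BLT1-/- CS replicate 2 (0.0456) or BLT1+/+ CS replicate 1 (0.0230).

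Whether BLT1 changed the response was asked directly. The interaction called 0 of 8 members at day 2 and 0.0% of all genes, with 0 members and 896 genes at an unadjusted limma p under 0.05. Nppa had the largest interaction, 0.93 ± 0.56 (limma adjusted p = 0.820), and Actc1 the lowest, -0.19 ± 0.46. The Nppa value turned on its pools, which differed by -0.86 (BLT1-/- minus BLT1+/+), while the pools of the other 7 members differed by -0.10 to 0.19. Set against the pool of the other BLT1 genotype, an alternative added after the data were seen, the Nppa response was -0.74 in BLT1+/+ and -1.53 in BLT1-/- lungs, the reverse order. Between the silica groups themselves, 0 of 8 members and 0.0201% of all genes were called at day 2. The differences, BLT1-/- minus BLT1+/+, ran from -0.23 ± 0.21 for Tnni3 to 0.35 ± 0.27 for Myh6, and 0 members but 1735 genes had an unadjusted limma p under 0.05.

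**Figure D2:**
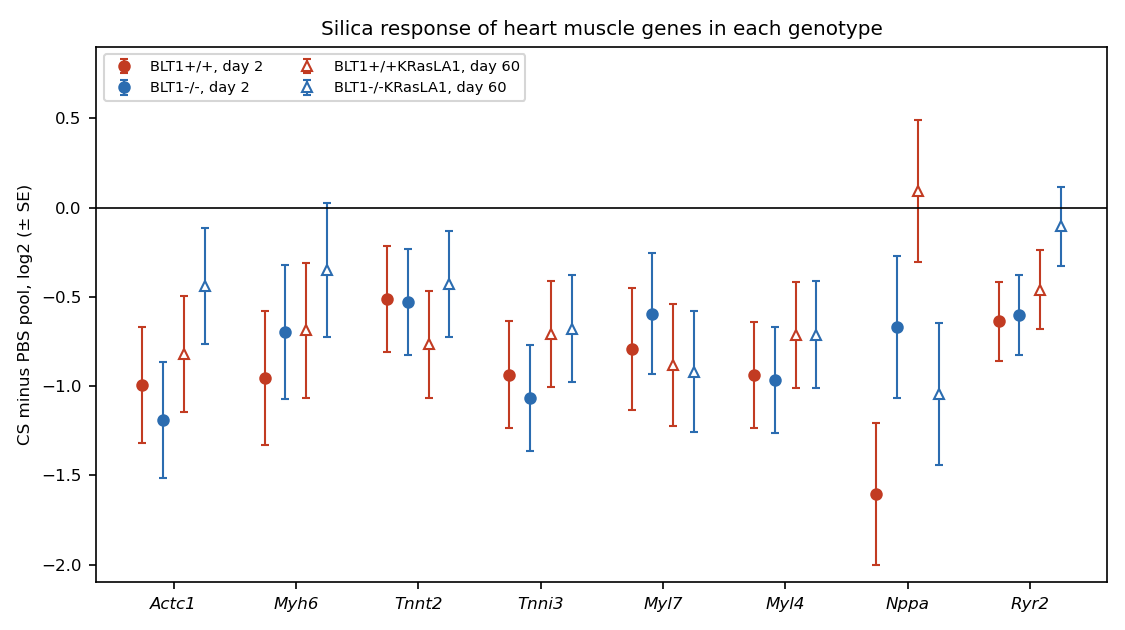
Silica response of each heart muscle gene, CS mean of 3 lungs minus the single PBS pool of the same genotype in log2 units (y axis), by gene (x axis); filled circles are day 2, open triangles day 60, and bars are the SE of the limma fit. Of the 32 values, 31 are below 0, and the exception is Nppa in BLT1+/+KRasLA1 lungs at 0.095.

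At day 60 the mean response passed for 0 of 8 members, where 0.677% of all genes were called lower and 3.35% higher; 5 members and 2804 genes had an unadjusted limma p under 0.05. The light chain gene Myl7 came nearest, at -0.90 ± 0.24 (limma adjusted p = 0.0557), with 6 of 6 lungs below their pools. Myl4 differed by -0.71 ± 0.21 (0.0897), Tnni3 by -0.69 ± 0.21 (0.0992), Actc1 by -0.63 ± 0.23 (0.194) and Tnnt2 by -0.60 ± 0.21 (0.172). Myh6 differed by -0.52 ± 0.27 (0.429; 5 of 6 lungs lower), Nppa by -0.47 ± 0.28 (0.530; 4 of 6) and Ryr2 by -0.28 ± 0.16 (0.490). The members' median was -0.61, against -0.03 over all genes.

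The mean Nppa value turned to 0.095 without the BLT1-/-KRasLA1 pool and was -1.04 without the BLT1+/+KRasLA1 pool. Single lungs moved the day 60 calls too. Without BLT1+/+KRasLA1 CS replicate 3, the highest lung of its group for all 8 members, 4 members passed: Myl7, Myl4, Tnni3 and Tnnt2, the last at a limma adjusted p of 0.0482. Without BLT1+/+ CS replicate 1, a day 2 lung that only adds to the pooled spread, Myl7, Myl4 and Tnni3 passed. Myl7 also passed without BLT1-/- CS replicate 3 or BLT1+/+ CS replicate 3, and its adjusted p-values over these 4 fits ran from 0.00990 to 0.0413. Weighting the arrays by their quality brought 5 members past the threshold, and fitting day 60 arrays alone 3.

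By genotype, 0 of 8 members passed in BLT1+/+KRasLA1 lungs, where 0.0752% of all genes were called lower, and 0 of 8 in BLT1-/-KRasLA1 lungs, where 0.0702% were. At an unadjusted limma p under 0.05 there were 5 members and 1935 genes in the first and 4 members and 1761 genes in the other. In BLT1+/+KRasLA1 lungs Nppa differed by 0.095 ± 0.40, with 2 of 3 lungs above the pool, and turned to -0.086 without replicate 3 and to -0.053 with array weights. The other 7 members differed by -0.46 (Ryr2) to -0.88 (Myl7). In BLT1-/-KRasLA1 lungs the values ran from -1.04 ± 0.40 for Nppa to -0.11 ± 0.22 for Ryr2.

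Among day 60 silica lungs, Nppa was 1.48 ± 0.28 log2 units lower in BLT1-/-KRasLA1 than in BLT1+/+KRasLA1 mice, 2.79-fold, and did not pass over all genes (limma adjusted p = 0.255, unadjusted p = 0.000141). The means were 8.37 and 9.85. The BLT1+/+KRasLA1 group includes replicate 2, the lung set apart by Eif2s3y and Xist, with Nppa at 9.94. This comparison called 0 of 8 members and 0.0401% of all genes; Nppa was the only member at an unadjusted limma p under 0.05, with 810 genes of all. Array weights (-1.54, limma adjusted p = 0.0187) and leaving out BLT1+/+ CS replicate 1 (0.0406) brought it past the threshold. The other 7 members differed by -0.32 ± 0.21 (Tnni3) to 0.047 ± 0.27 (Myh6), and the Myh6 value turned to -0.13 without BLT1-/-KRasLA1 CS replicate 2 and to -0.093 without BLT1+/+KRasLA1 CS replicate 1.

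Nppa also departed from the other members within an array. Nppa minus the mean of the other 7 was -0.33 ± 0.20 (SD, n = 3) in BLT1+/+KRasLA1 CS lungs and -1.65 ± 0.43 in BLT1-/-KRasLA1 CS lungs. In the pools of those genotypes the offset was -1.14 and -1.12. The BLT1-/-KRasLA1 pool was below the BLT1+/+KRasLA1 pool for all 8 members, from -0.22 for Myl7 to -0.54 for Tnnt2, single arrays with no test between them. At day 2 it was -1.32 ± 0.30 in BLT1+/+ and -1.29 ± 0.17 in BLT1-/- CS lungs, and -0.54 and -1.43 in their pools. The interaction of BLT1 and silica for Nppa at day 60 was -1.14 ± 0.56 and did not pass (limma adjusted p = 0.9999). It called 0 of 8 members and 0.0% of all genes, with 0 members and 396 genes at an unadjusted limma p under 0.05.

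The responses of the days did not differ by test for any member. Day 60 minus day 2, 0 of 8 passed, where 2.35% of all genes did, and the values ran from -0.21 ± 0.34 for Myl7 to 0.66 ± 0.40 for Nppa (limma adjusted p from 0.526 to 0.968). There were 0 members and 2804 genes at an unadjusted limma p under 0.05. Levels in saline lungs were lower at day 60 for 6 of 8 members, and 0 of 8 passed, where 0.396% of all genes did. The pools of the days also differed in Eif2s3y and Xist, which cannot be told apart from day here. Ryr2 differed by -0.80 ± 0.19 (limma adjusted p = 0.111) and Myh6 by -0.88 ± 0.33 (0.316), the 2 members with an unadjusted limma p under 0.05, as had 2127 genes. Ryr2 passed with array weights (0.0271) and with the replicate block (0.0412). Neither fit measured the spread of a pool, so these 2 calls carry little weight. Myl7 differed by 0.27 ± 0.29 and Myl4 by 0.05 ± 0.26, the members above 0.

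The members moved together from lung to lung. BLT1+/+ CS replicate 1 at day 2, BLT1-/- CS replicate 2 and BLT1+/+KRasLA1 CS replicate 3 were each the highest of their group for 8 of 8 members, and BLT1-/- CS replicate 3 the lowest for 8 of 8. Over the 12 CS lungs with group means removed, Pearson's r was 0.886 to 0.979 in the 21 pairs without Nppa (Spearman's rho 0.832 to 0.965) and 0.630 to 0.773 in the 7 pairs with Nppa (rho 0.601 to 0.790). Leaving out the 2 lungs farthest from the median gave 0.784 to 0.963 and 0.323 to 0.563. Over all 16 arrays the 28 pairs had r from 0.463 to 0.945. Values on 1 array share its RNA and scaling, so these are descriptions, and 12 deviations from 4 means hold only 8 independent values.

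**Figure D3:**
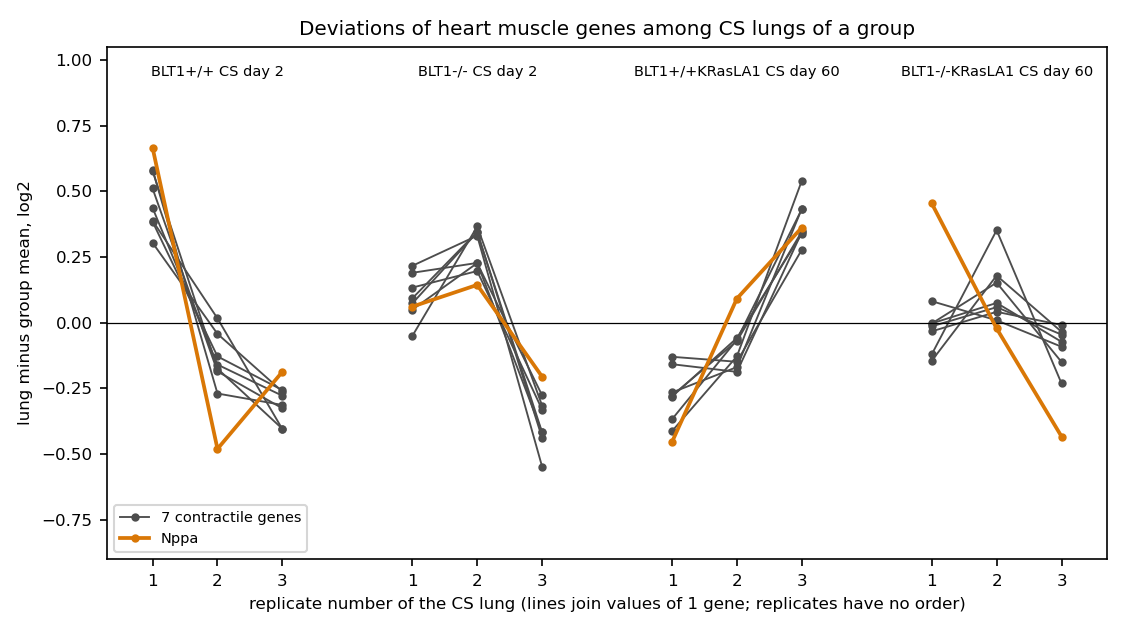
Each CS lung's log2 level minus the mean of its group of 3 (y axis), by group and replicate number (x axis); grey lines are the 7 contractile and calcium genes, the orange line is Nppa, and lines only join the values of a gene. In 3 of the 4 groups 1 lung is the highest for all 8 genes, and in BLT1-/-KRasLA1 lungs Nppa is highest in another lung than 6 of the 8.

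Among the genes of the lists, those that followed the mean of the 8 members most closely were genes of heart and other muscle. The lists were chosen with earlier results of these data known, and some genes outside them came close. Over 16 arrays these were Pln (r = 0.956), the brake of the calcium pump, Ckmt2 (0.955), mitochondrial creatine kinase of muscle, Mybphl (0.949), an atrial myosin-binding protein, and Casq2 (0.927), the calcium store protein. Outside any list, with predicted genes, clone-named genes and small RNAs passed over, the 8 closest were Mapk10 (0.917), Dlc1, Sbspon, Mtcl1, Kif13a, Txlnb, Thra and Tacc2 (0.872). Over the 12 CS lungs with group means removed the giant sarcomere protein gene Ttn led at 0.988, and outside the lists came Cep68 (0.959), Rarres2, Nfe2l3, Fat4, Nrp1, Nr3c2, Kmt2c and Sfpq (0.933). Members took part in that mean, and values on 1 array share its RNA and scaling.

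Markers of both heart chambers were looked up. Members Myl7, Myl4 and Nppa are atrial, and of the other atrial markers Mybphl differed at day 2 by -0.47 ± 0.15 (limma adjusted p = 0.0615) and Sln by -0.30 ± 0.13 (0.158). Bmp10, an atrial ligand, stayed between 5.42 and 6.03 on all arrays. The ventricular light chain gene Myl2 stayed between 6.75 and 7.20 and the ventricular factor Irx4 between 6.80 and 7.26. Myl2 differed by 0.06 ± 0.12 at day 2 and by -0.07 ± 0.12 at day 60. Myl3, a light chain of ventricle and slow muscle, fell by 0.41 ± 0.11 at day 2 (limma adjusted p = 0.0306).

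Close relatives of the members help to place the probe sets, since near-identical paralogs can share signal. Skeletal actin Acta1 differed by -0.08 ± 0.08 at day 2 and ranged from 8.61 to 8.85 over the 16 arrays, and smooth muscle actin Acta2 by 0.07 ± 0.08, while cardiac Actc1 fell by 1.09. Myh7, the beta heavy chain and neighbour of Myh6 with 3 genes between, differed by -0.50 ± 0.17 (limma adjusted p = 0.0723). In silica lungs Myh7 was 0.79 ± 0.17 higher in BLT1-/- than in BLT1+/+ mice at day 2 and 0.61 ± 0.17 higher at day 60, and neither passed (limma adjusted p = 0.174 and 0.967). The pools were ordered the same way, 10.09 against 9.36 at day 2 and 10.43 against 9.63 at day 60. For Myh6 the silica lungs differed by 0.35 ± 0.27 and 0.047 ± 0.27, which did not pass either. Skeletal troponin genes Tnnt3 (-0.06) and Tnni2 (-0.11), skeletal Ryr1 (-0.05) and the peptide genes Nppb (-0.05) and Nppc (-0.05) gave day 2 differences near 0, with limma adjusted p-values from 0.709 for Tnni2 to 0.893 for Nppc. Of the 16 relatives looked up, Myl3 alone passed at day 2, and Acta2 and Myl9 fell at day 60. Over all genes, 4.37% were called lower at day 2 and 0.677% at day 60. Myh6 shares chromosome 14 with Ltb4r1, the gene of BLT1, with 47 genes between them. Of those, 34 were measured, and 0 were called in the BLT1 difference at either day. Over all genes, 0.0201% were called at day 2 and 0.0401% at day 60, so a count of 0 among 34 says little.

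Heart pathway lists put the members in context at day 2, each given as measured genes without the members. Over all genes, 4.37% were called lower and 8.03% higher in this comparison. Of 27 sarcomere and Z disc genes 5 fell (Ttn, Myl3, Csrp3, Cmya5 and Tnni3k) and 1 rose (Ankrd1, a stress-induced titin partner, 0.81 ± 0.15), and the list's median was -0.32. Of 27 calcium and excitation genes 3 fell (Pln by 1.00 ± 0.29, Casq2 by 0.60 ± 0.16, Popdc2 by 0.44 ± 0.11) and 1 rose (Gja1, a connexin that many lung cells also make, 0.85 ± 0.12). Of 20 muscle energy genes 8 fell, among them Mb, the oxygen-binding myoglobin, by 0.91 ± 0.20, Ckmt2 by 0.70 ± 0.14, Ldhb by 0.63 ± 0.11 and Fabp3 by 0.59 ± 0.11, and 1 rose (Idh3a). Of 19 heart transcription factors 2 fell, Mef2c by 0.44 ± 0.12 and Tbx20 by 0.53 ± 0.16. Of 11 genes of the natriuretic peptide pathway, which Nppa feeds, 2 fell, the receptor Npr2 by 0.32 ± 0.06 and the clearance receptor Npr3 by 0.97 ± 0.29.

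At day 60, 0 of 27 sarcomere genes passed, where 0.677% of all genes were called lower. Of their differences 27 of 27 were below 0, with a median of -0.21, against -0.03 over all genes. Csrp3 (-0.44 ± 0.12) and Myoz2 (-0.71 ± 0.19) had the smallest p-values. These differences share the same pools and lungs, so they are not independent. In the calcium, peptide and transcription factor lists 0 passed. Of the energy genes 2 fell, Fabp3 by 0.62 ± 0.11 and Cox7a1, a heart and muscle cytochrome oxidase subunit, by 0.69 ± 0.16.

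Other tissues that could travel with a dissected lung, and cells that change with silica, moved as well. Over all genes, 4.37% were called lower and 8.03% higher at day 2. The shares at day 60 were 0.677% and 3.35%. Among 10 fat genes 2 fell at day 2, Retn by 1.16 ± 0.32 and Car3 by 1.29 ± 0.37, and the mean log2 level of the list was 9.01 to 9.14 in the pools and 8.33 to 8.90 in the lungs. At day 60 0 fat genes passed, and the list stood at 9.20 to 9.24 in the pools and 8.53 to 9.29 in the lungs. The smooth muscle list, 17 genes, had 3 lower (Synpo2, Synm, Pcp4l1) and 1 higher (Actn1) at day 2 and 5 lower at day 60 (Myl9, Tagln, Tpm2, Cnn1 and Acta2). Its level was 10.42 to 10.51 in the pools and 10.13 to 10.45 in lungs at day 2, and 10.20 to 10.43 and 9.84 to 10.12 at day 60. The members' own mean level was 10.92 to 11.01 in the pools and 9.76 to 10.57 in lungs at day 2, and 10.39 to 10.75 and 9.68 to 10.52 at day 60.

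Skeletal muscle genes, 21 measured, had 1 call at day 2 (Mybpc2 higher) and levels of 7.36 to 7.57 in the pools and 7.33 to 7.57 in lungs, so that list did not follow the members. Mesothelium and epicardium, 11 genes, had 3 higher (Msln, Krt8, Krt19) and 2 lower (Upk1b, Gpm6a) at day 2 with levels of 10.20 to 10.40 in the pools and 9.94 to 10.41 in lungs, and 1 lower (Gpm6a) at day 60, with 10.31 to 10.39 and 9.95 to 10.13. The lung epithelium and endothelium list stayed between 13.08 and 13.24 on all arrays, and every CS lung was below its own pool. Its levels were 13.17 to 13.19 in the pools and 13.08 to 13.19 in lungs at day 2. At day 60 they were 13.22 to 13.24 and 13.14 to 13.20. Leukocyte genes, 14 measured, were 7 lower and 1 higher at day 2 and 7 higher at day 60, with levels of 10.89 to 10.95 in pools and 10.14 to 10.57 in lungs, then 10.13 to 10.28 and 10.71 to 11.13. Cell cycle genes rose for 13 of 13 at day 2 and 2 of 13 at day 60, with pools at 8.81 to 8.82 and lungs at 9.82 to 10.84, then 8.86 to 8.98 and 9.30 to 9.72. The part of these lists in the members' differences was not tested.

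**Figure D4:**
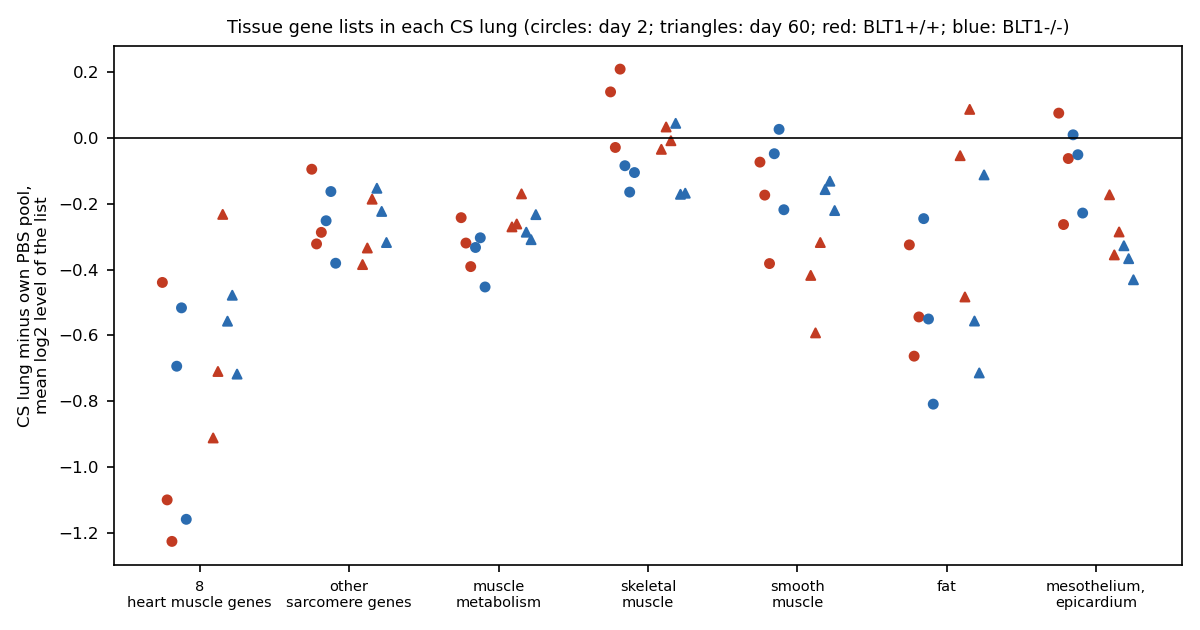
Mean log2 level of 7 gene lists in each CS lung minus that of its own PBS pool (y axis), by list (x axis); circles are day 2, triangles day 60, red BLT1+/+ and blue BLT1-/-. The 8 heart muscle genes, the other sarcomere genes and the muscle energy genes are below 0 in all 12 lungs, while skeletal muscle genes lie on both sides of 0. Several lists not drawn were below their own pools in all 12 lungs too. They were lung epithelium and endothelium, heart calcium handling, the natriuretic peptide pathway and heart transcription factors.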

How the data were processed

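Per the submitters' processing notes, the authors used Partek 6.6 and RMA; what they deposited are log2 expression values per probe set of Affymetrix whole-transcript arrays. How the steps were ordered is not stated. RMA usually brings the probe values of all arrays to a common distribution, so less or more RNA in a whole lung leaves little or no trace. The medians of the probe set values still ran from 8.25 to 8.34. Changes of dim probe sets can come out too small. The number of arrays limits the precision.

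Probe sets were named through the supplied platform annotation. Of 35556, 21789 named 1 gene, 1621 several and 12146 none; the last kinds were left out. For 999 genes with several probe sets the one with the highest mean was kept, leaving 19938 genes. The 8 groups entered a single limma fit over the 16 arrays (version 3.58.1, R 4.3.3, eBayes with a mean-variance trend), with 8 residual and 5.4 prior degrees of freedom, and p-values were Benjamini-Hochberg adjusted over all genes at 0.05. The procedure was tested on simulated data. Same-numbered BLT1+/+ and BLT1-/- lungs shared deviations from their group means at day 2 (r = 0.426, 0.200 and 0.345). That pairing comes from the data and not from the labels. Blocked values stand beside results whose call they changed, at day 2 and between the pools of the days.

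The members and gene lists were chosen with earlier results of these data known. Other genes named are the 4 of smallest p in each list at each day, the 8 closest by correlation over all arrays and over CS lungs, listed paralogs, and Ltb4r1. Predicted genes, clone-named genes and small RNAs were passed over in picking the 8 closest. Genes called in a list beyond those 4 were named after their values were seen. Promoters came from RefSeq windows. The mutated gene of the KRasLA1 allele was not analysed here. Alternatives were another normalization (quantile or cyclic loess), array weights, no variance trend, a filter on dim genes, the mean of a gene's probe sets, arrays of 1 day, the replicate block, leaving out each lung or pool, and other choices of pool.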

Additional observations from a re-analysis of the deposited data

How the results depend on the processing

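All silica responses of the members kept their direction under every alternative run, except those of Nppa in BLT1+/+KRasLA1 lungs (-0.053 with array weights, and -0.086 to 0.32 with 1 lung left out) and in the mean at day 60 (-1.04 to 0.095 with 1 array left out, the extremes without a PBS pool, where the fit is by construction that of the other genotype). For Myh6 the BLT1 difference at day 60 ran from -0.13 to 0.22 with 1 lung left out. Counts of members past the threshold moved more, and the cause was not tested. In BLT1+/+ lungs at day 2 the count was 0, 1 with the replicate block, 4 against the mean of both pools, and 0 to 4 with 1 lung left out. In BLT1-/- lungs it was 2, then 1 with quantile normalization, 3 with array weights (Myl4 added), 0 with no variance trend, 0 with arrays of the same day only, 4 with the replicate block, 5 against the mean of both pools, 2 against the pool of the other BLT1 genotype (Tnni3 and Nppa, with Actc1 at 0.0518), and 0 to 3 with 1 lung left out. For the mean response at day 2 it was 5, 6 with only the genes above the median of all genes on at least 1 array, 7 with the replicate block, and 0 to 8 with 1 array left out. For the mean response at day 60 it was 0, then 5 with array weights, 1 with genes above the median only, 3 with arrays of the same day only, 3 with the replicate block, and 0 to 4 with 1 array left out. For the BLT1 difference at day 60 it was 0, 1 with array weights, and 0 to 1 with 1 lung left out. For the pools between days it was 0, 1 with array weights and 1 with the replicate block.

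Same-numbered lungs at day 60 had correlations of 0.091, 0.010 and 0.055 and are not paired. The block fit nevertheless blocked them as well, and at day 60 it gave 3 members. Over all genes, 2473 were called in the mean response at day 2, against 1589 to 3299 under other settings and 96 to 3099 with 1 array left out, and 802 at day 60, against 689 to 1729 and 58 to 1040. A pool's spread was never measured, the block places each pool at the mean of its blocks and so makes errors of silica responses too small, and 3 lungs a group limit what differences between genotypes can be seen.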
